A study of Mus musculus with 13 samples.

Results

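The Ikaros family of zinc-finger transcription factors was followed here through thymocyte stages and through the immune cells of unrelated samples. The members were the 5 of 57010 listed genes whose symbols are Ikzf1, Ikzf2, Ikzf3, Ikzf4 and Ikzf5, which encode Ikaros, Helios, Aiolos, Eos and Pegasus. UMIs (unique molecular identifiers, 1 per captured transcript) were read from split-pool barcoded cells of 2 Parse experiments. The Parse WT experiment held 4 thymic samples, the separated lobes of 2 female C57BL/6N mice aged 2 months, and 16 other tissue samples of other work that shared the kit. Parse Mini, a smaller kit, held 4 more lobes, again from 2 mice. The labels name thymus and spleen as tissues and control and chronic stress as treatments for the shared Parse WT libraries, without tying the 16 samples to either. Names of these samples begin with CVS_C, CVS_S or YD_C, and no group was read from these codes. The 16 samples are therefore given as ranges and medians with no test. Lobes 1 to 4 of Parse WT could not be tied to their mice, and lobes of 1 mouse are not separate animals. P-values over 4 lobes, or fewer where a lobe had too few cells in a gate, therefore measure a spread that is in part technical. They are too small for a statement about animals. The 10x libraries of the series were not analysed here.

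Members of the family share N-terminal zinc fingers that bind DNA and a C-terminal pair of zinc fingers through which they form homodimers and heterodimers. Ikaros recruits the NuRD chromatin-remodelling and deacetylase complex, restrains Notch target genes in early thymocytes and is needed for lymphoid development. Helios is known from regulatory T cells and from thymocytes that receive strong T cell receptor signals, Aiolos from B cells and from thymocytes that express both co-receptors, and Eos as a partner of Foxp3 in regulatory T cells. Pegasus is the most divergent member and is expressed more widely.

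A stretch of 60 coding bases from the C-terminal zinc-finger region is shown for each member, because dimers form through this region and because it is where the 5 genes can be compared base by base. Capitals mark bases that differ from Ikzf1, read 5′ to 3′ on the coding strand of GENCODE M21 transcripts (build GRCm38).
Ikzf1: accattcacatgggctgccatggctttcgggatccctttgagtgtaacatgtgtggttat
Ikzf2: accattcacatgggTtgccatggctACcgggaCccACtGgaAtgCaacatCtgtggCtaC
Ikzf3: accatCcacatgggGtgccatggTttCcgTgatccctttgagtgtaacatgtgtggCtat
Ikzf4: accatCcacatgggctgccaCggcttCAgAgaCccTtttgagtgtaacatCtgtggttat
Ikzf5: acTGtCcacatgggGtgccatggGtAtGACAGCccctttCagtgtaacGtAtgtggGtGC
The Ikzf1 stretch lay in exon 9 at chr11:11769453-11769512 on the plus strand. The others lay on the minus strand, in exon 8 of Ikzf2 (chr1:69538831-69538890), exon 8 of Ikzf3 (chr11:98467055-98467114), exon 8 of Ikzf4 (chr10:128634111-128634170) and exon 4 of Ikzf5 (chr7:131391700-131391759). Identity to Ikzf1 was 90% for Ikzf3, 86.7% for Ikzf4, 80% for Ikzf2 and 70% for Ikzf5. Among the other pairs it ran from 65% between Ikzf2 and Ikzf5 to 85% between Ikzf3 and Ikzf4.

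No run of 50 bases was shared between the transcripts of any members, so reads of that length placed in 1 member could not be split with another. The genes spanned chr11:11685003-11772926 (Ikzf1), chr1:69531214-69687245 (Ikzf2), chr11:98464902-98546031 (Ikzf3), chr10:128630843-128645991 (Ikzf4) and chr7:131388652-131410521 (Ikzf5). Ikzf5 was the uncertain member. Of its 5818 runs of 50 bases, 4734 also occurred in other annotated genes, 4557 of them in Pstk on the opposite strand, and the annotated span of Fgfr2 covered the whole gene on the same strand. Pstk held 6565 UMIs and Fgfr2 held 383469 in Parse WT, against 9083 for Ikzf5. Antisense genes also overlapped Ikzf1 (Gm11999, 4698 UMIs), Ikzf2 (Gm29114, 1653 UMIs) and, at its start, Ikzf4 (Gm26876, 70 UMIs), and whether the counting used strand is not stated by the labels or the methods.

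Over all cells, Parse WT held 932344 UMIs of Ikzf1, 412913 of Ikzf3, 153575 of Ikzf2, 9083 of Ikzf5 and 2955 of Ikzf4. Parse Mini held 193059, 69661, 59899, 1979 and 682 in the same order of genes. Ikzf4 and Ikzf5 thus rest on far fewer counts than the other members, and their values carry wide errors. The thymic lobes of Parse WT held 4178 to 15077 cells and 30450786 to 124106974 UMIs, with median UMIs per cell of 3227 to 4263. The Parse Mini lobes held 4498 to 5426 cells and 28057164 to 33264104 UMIs, with medians of 2388 to 3221. After the study's limits of 500 to 25000 UMIs and at most 15% mitochondrial UMIs, 39369 thymic and 81396 other cells of Parse WT and 19273 cells of Parse Mini were used. Lobe 1 of Parse WT stood apart from the other lobes in its cell mix, with all 24 erythroid cells and 199 of the 316 B-lineage cells of the thymic samples. No full cell barcode occurred more than once, while 19867 of 103602 well combinations in Parse WT and 1360 of 18725 in Parse Mini occurred in more than 1 sublibrary, as this barcoding allows.

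Thymocytes were placed by gates, that is, by UMIs of a few genes that include no family member, and gated cells are named by their gate rather than as a proven cell type. The narrow gates used the presence of single UMIs (for example Rag1, Cd4 and Cd8 for resting double-positive cells). They left few cells at late stages, and the narrow Tnfrsf9 gate of Parse WT still carried Arpp21, a gene of double-positive cells, at 3233 CPM (UMIs per 1000000 UMIs outside ribosomal RNA), against 1533 CPM in the narrow selected double-positive gate. A wide set was therefore added after cell numbers and levels had been seen. It took T-lineage cells with at least 1000 UMIs and ordered them by summed genes of double-positive cells, among them Rag1, Rag2, Arpp21 and Dntt, with at least 4 UMIs per 1000 for resting double-positive cells, 1 to 3 for selected double-positive cells that also held Cd4, Cd8 and at least 2 UMIs of Itm2a, Cd69 and Cd5, and at most 1 for late cells. Late cells were divided into CD4 single-positive (Zbtb7b or Cd40lg without Cd8, mature with S1pr1 or Klf2), CD8 single-positive (Runx3 and Cd8 without Cd4), Tnfrsf9 and Foxp3 gates. Tnfrsf9 encodes 4-1BB, a costimulatory receptor induced by strong T cell receptor signals, and Foxp3 is the defining factor of regulatory T cells. Double-negative cells held Il2ra, at least 2 UMIs summed over Il2ra, Notch3, Erg and Hes1, neither co-receptor, and no Foxp3 or Tnfrsf9. A cell with 2 UMIs of Il2ra and none of the other genes could thus enter that gate. Cycling cells held at least 3 UMIs of 12 cell-cycle genes, and at least 2 of these per 1000 UMIs. They also held a Cd4 or Cd8 UMI and more than 1 UMI per 1000 of the double-positive genes. Resting and selected double-positive cells held at most 1 UMI of the cell-cycle genes, while double-negative cells had no such limit. The part of cycling in the comparison of double-negative with resting double-positive cells was not tested.

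The wide gates held, in Parse WT and Parse Mini, 248 and 123 double-negative, 8706 and 3446 cycling, 10200 and 7671 resting double-positive, 330 and 172 selected double-positive, 272 and 162 immature CD4, 106 and 47 mature CD4, 259 and 131 CD8, 166 and 94 Tnfrsf9, and 39 and 25 Foxp3 cells. Arpp21, itself a gene of the wide gates, stood at 176 CPM in the Tnfrsf9 gate of Parse WT and at 5322 CPM in the resting double-positive gate. Among genes that the gates did not use, Pdcd1, an inhibitory receptor, stood at 60.1 CPM in the Tnfrsf9 gate against 14.9 CPM in selected double-positive cells, and Ctla4, a regulatory T cell receptor, stood at 1038 CPM in the Foxp3 gate against 161 in the Tnfrsf9 gate. Egr2, an early-response factor, was no higher in the Tnfrsf9 gate than in selected double-positive cells (10.5 against 12.5 CPM). Nr4a1, Nr4a3, Bcl2l11 and Tnfrsf4 had also been set as check markers of the Tnfrsf9 gate, and Tnfrsf18 of the Foxp3 gate. Their levels in the gates are not given here. The 8 B cell markers summed to 84.1 CPM in the Tnfrsf9 gate and 113 CPM in the resting double-positive gate of Parse WT, against 9605 CPM in thymic B-lineage cells. In Parse Mini these sums were 2.79 and 15.2 CPM, against 9966. The 5 plasmacytoid dendritic markers summed to 218 CPM in the Tnfrsf9 gate and 180.0 CPM in selected double-positive cells of Parse WT against 50.9 CPM in resting double-positive cells, with 4 of the 5 at 0 in the Tnfrsf9 gate and Pacsin1 alone detected. The 8 macrophage markers summed to 4.51 CPM in the Tnfrsf9 gate, with 5 at 0. The 6 conventional dendritic markers summed to 21.03 CPM in the Tnfrsf9 gate of Parse WT (0 to 55.5 CPM over lobes) and 30.7 CPM in that of Parse Mini (0 to 125 CPM), with 3 at 0 in each, against 3.33 and 3.48 CPM in resting double-positive cells. The part of such transcripts in the levels below was not tested, and doublets were limited only by the rule that 70% of a cell's lineage UMIs come from 1 lineage. That rule cannot remove doublets of T-lineage cells with each other. The study called doublets computationally and removed them from its Parse data, a step not taken here. Median UMIs per cell outside ribosomal RNA were 4336.5 in selected and 1997.5 in resting double-positive cells of Parse WT. The part of doublets in the selected gate was not tested.

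Ikzf2, which encodes Helios, had its highest levels in the Tnfrsf9 and Foxp3 gates. Resting double-positive cells held it at 335, 369, 349.7 and 338 CPM in lobes 1 to 4 of Parse WT and at 478, 396, 418 and 365 CPM in those of Parse Mini. Selected double-positive cells held 1484, 982, 910.4 and 954 CPM, and 1465, 1559.5, 1354 and 1573 CPM. All 8 lobes were higher after selection, and the groups did not overlap in either experiment.

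In the immature CD4 gate Ikzf2 stood at 134, 245, 221 and 491 CPM in Parse WT and 887, 224, 761 and 289 CPM in Parse Mini. Every lobe lay below its own selected double-positive cells. Mature CD4 cells were uneven, at 94.99, 382, 773 and 57.0 CPM in Parse WT and 3347, 449.7, 0 and 1176 CPM in Parse Mini, where a lobe held only 7 to 15 such cells. In Parse Mini their 147 Ikzf2 UMIs lay in 21.3% of 47 cells. Whether these were regulatory cells without a detected Foxp3 UMI was not tested. CD8 cells, in contrast, held 905, 1153, 844 and 1079 CPM and 1053, 1058, 1291 and 719 CPM.

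Cells of the Tnfrsf9 gate held Ikzf2 at 3758, 3444, 3942 and 3304 CPM in Parse WT and 2914, 4322, 4154 and 5414 CPM in Parse Mini. The lobes of this gate lay above all lobes of selected double-positive cells in both experiments. Relative to resting double-positive cells the mean was 10.4-fold higher in Parse WT and 10.1-fold higher in Parse Mini. With the narrow Tnfrsf9 gate, which took cells of any stage, the pooled ratio was 3.51 and 4.92.

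The Foxp3 gate held Ikzf2 at 2385, 3353, 3980.0 and 2822 CPM in Parse WT and 7229, 3180.4, 2731 and 3910.2 CPM in Parse Mini, where the highest value came from 3 cells. Its mean, 3135 ± 689 CPM (SD, n = 4) and 4263 ± 2036 CPM, overlapped that of the Tnfrsf9 gate, 3612 ± 291 CPM and 4201 ± 1024 CPM. The order of these gates therefore could not be told, and 3 of 4 lobes had the higher value in the Tnfrsf9 gate in each experiment. Below them in Parse WT came selected double-positive (1083 ± 269 CPM), CD8 (995 ± 145), double-negative (631 ± 290), cycling (422 ± 26.2), resting double-positive (348 ± 15.3), mature CD4 (327 ± 331) and immature CD4 cells (272 ± 153). Between neighbours in that order, only the Foxp3 and selected double-positive gates, and the cycling and resting double-positive gates, had ranges that did not overlap.

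The share of cells with an Ikzf2 UMI was compared after each cell was thinned to 1500 UMIs. It was 26.1% of resting double-positive, 52.4% of selected double-positive, 13.6% of immature CD4, 51.1% of CD8, 74.8% of Tnfrsf9 and 76.5% of Foxp3 cells in Parse WT. In Parse Mini it was 26.8%, 63.5%, 20.2%, 43.4%, 81.0% and 80%. Immature CD4 cells of Parse Mini had a lower share than resting double-positive cells although their mean level was higher (540.4 against 414 CPM), so no order is read for that pair. The thinned shares rest on 151 of 166 Tnfrsf9 cells, 34 of 39 Foxp3 cells and 7170 of 10200 resting double-positive cells in Parse WT.

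Levels of Ikzf2 followed the number of Tnfrsf9 UMIs in a cell. Among late thymocytes without Foxp3, pooled over lobes, cells with 0, 1, 2 and at least 3 Tnfrsf9 UMIs held Ikzf2 at 1069, 2388, 4994 and 5937 CPM in Parse WT. In Parse Mini they held 1432, 3082, 5582 and 6382 CPM. The upper steps rest on 31 and 25 cells in Parse WT and on 17 and 27 in Parse Mini. Every lobe of both experiments was higher at 1 than at 0 and at 2 than at 1 UMIs, while 2 of 4 lobes in each were higher at 3 or more than at 2. Lobe 1 of Parse Mini, with 1 and 2 cells at the upper steps, was the 1 lobe lower at 3 or more than at 0. Across all T-lineage cells the values were 446, 970, 2012 and 2705 CPM in Parse WT and 520, 1377, 2745 and 3823 CPM in Parse Mini. Cells that are rich in UMIs reach a given Tnfrsf9 count more easily, and the steps carry no test.

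A second measure of signalling used 5 other response genes, Nr4a1, Nr4a3, Egr2, Egr3 and Pdcd1, in cells with no Tnfrsf9 UMI. Late cells with 0, 1 and at least 2 UMIs of these genes held Ikzf2 at 712, 959 and 1518 CPM in Parse WT and at 955, 1407 and 2220 CPM in Parse Mini. All 8 lobes were higher at each step. From the lowest to the highest step the ratio was 2.13 and 2.32, beside 5.55 and 4.46 along Tnfrsf9, and these ratios were not tested against each other.

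The tests across all genes used sums of raw UMIs per lobe and gate in edgeR's quasi-likelihood model, with the lobe as a block, a log2 fold change and a p adjusted by the Benjamini-Hochberg method over all genes tested (called at 0.05). In the fits of these gates Ikzf5 reached the minimum CPM of the filter on low counts only with the narrow gates of Parse Mini, where it passed in no comparison, so counts below are of the 4 other members. Ikzf4 passed that filter in the wide fits only through sums of the Foxp3, Tnfrsf9 and, in Parse Mini, mature CD4 gates, where it is high. Its differences between those gates and others are therefore given as a description without a p, and it is left out of the counts of members called in those comparisons.

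From resting to selected double-positive cells Ikzf2 rose. The log2 change was 1.59 ± 0.15 (SE, adjusted p = 4.51e-13) in Parse WT and 1.79 ± 0.18 (adjusted p = 6.67e-13) in Parse Mini with the wide gates. It was 1.09 ± 0.29 (adjusted p = 0.0103) and 0.94 ± 0.17 (adjusted p = 8.56e-06) with the narrow gates, where the Parse WT call was lost without lobe 4 and both calls were lost with DESeq2. Ikzf1 rose by 0.35 ± 0.09 (adjusted p = 0.00122) and 0.59 ± 0.09 (adjusted p = 6.39e-07) with the wide gates, the former lost without the lobe block (adjusted p = 0.0855), and by 0.37 ± 0.10 with the narrow gates of Parse WT (adjusted p = 0.0143, or 0.14 without the block). Ikzf3 rose by 0.33 ± 0.11 in Parse Mini alone (adjusted p = 0.0156, or 0.0821 without the block), while the narrow gates there gave the opposite sign (-0.21 ± 0.15, adjusted p = 0.51). Ikzf4 rose by 1.69 ± 0.49 in Parse WT alone (adjusted p = 0.00578, lost without lobe 2 or lobe 3), and the experiments were not tested against each other. With cells thinned to 1500 UMIs, selected cells of Parse WT held 1 Ikzf4 UMI (2.10 CPM, against 3.72 CPM in resting cells). Those of Parse Mini held 5 (20.0 against 2.73 CPM). Called members numbered 3 of 4 in each experiment with the wide gates, Ikzf4 among them in Parse WT, where 24.5% and 23% of all genes tested were called. With the narrow gates they numbered 2 in Parse WT and 1 in Parse Mini, against 8.22% and 7.44%.

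On entry into the immature CD4 gate Ikzf2 fell again. The log2 change from selected double-positive cells was -1.93 ± 0.24 (adjusted p = 4.8e-09) and -1.82 ± 0.27 (adjusted p = 6.18e-07) with the wide gates. It was -2.67 ± 0.57 (adjusted p = 0.00313, lost without lobe 4) and -1.22 ± 0.28 (adjusted p = 0.0043, lost without lobe 2 or lobe 4 and with DESeq2, and 0.0508 without the block) with the narrow gates. Lobe 3 of Parse Mini had too few immature CD4 cells to enter its narrow fit. Ikzf3 fell with the wide gates, by 0.54 on the log2 scale in Parse WT (adjusted p = 0.000995) and by 0.66 in Parse Mini (adjusted p = 0.00139, lost without lobe 2). Ikzf1 fell in Parse Mini alone (-0.49 ± 0.11, adjusted p = 0.000879, against -0.08 ± 0.10 in Parse WT). These made 2 and 3 of 4 members with the wide gates (11.2% and 10.3% of all genes), and 1 and 1 with the narrow gates (2.29% and 1.04%).

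The Tnfrsf9 gate stood above selected double-positive cells in Ikzf2 by 1.70 ± 0.16 on the log2 scale (adjusted p = 1.27e-12) in Parse WT and 1.57 ± 0.19 (adjusted p = 2.74e-09) in Parse Mini. With the narrow gates the difference was 0.81 ± 0.26 (adjusted p = 0.049) in Parse WT, a call that was lost when lobe 2, lobe 3 or lobe 4 was left out and without the block (adjusted p = 0.147). In Parse Mini the narrow difference was 1.24 ± 0.14 (adjusted p = 4.8e-12), and DESeq2 called Ikzf2 with the narrow gates of neither experiment. Ikzf3 was higher as well, by 0.49 ± 0.11 (adjusted p = 0.000466) and 0.58 ± 0.13 (adjusted p = 0.00113) with the wide gates. The fitted difference of Ikzf4 was 2.41 ± 0.64 in Parse Mini and 1.28 ± 0.56 in Parse WT. Ikzf1 was lower in Parse Mini (-0.36 ± 0.11, adjusted p = 0.0178), lost without lobe 2, lobe 3 or lobe 4 and without the block (adjusted p = 0.0773). The narrow gates called Ikzf1 in Parse WT (-0.34 ± 0.10, adjusted p = 0.0314, or 0.205 without the block) and Ikzf3 in Parse Mini (0.51 ± 0.15, adjusted p = 0.022, or 0.0601 without the block), calls that were lost without lobe 2, lobe 3 or lobe 4 and without lobe 1 respectively. Members called, Ikzf4 left out, numbered 2 in Parse WT and 3 in Parse Mini with the wide gates (16.8% and 15.9% of all genes), and 2 in each with the narrow gates (6.6% and 5.05%).

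Against immature CD4 cells in place of selected double-positive cells, Ikzf2 was higher in the Tnfrsf9 gate by 3.63 ± 0.22 (adjusted p = 9.89e-20) in Parse WT and by 3.38 ± 0.26 (adjusted p = 2.45e-16) in Parse Mini. When the narrow Tnfrsf9 gate was replaced by cells with at least 2 UMIs of the 5 other response genes and no Tnfrsf9, Ikzf2 did not pass against selected double-positive cells, at -0.25 ± 0.21 (adjusted p = 0.613) and 0.26 ± 0.15 (adjusted p = 0.418).

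Foxp3 cells exceeded mature CD4 cells in Ikzf2 by 3.32 ± 0.34 (adjusted p = 3.36e-10) in Parse WT and 1.79 ± 0.33 (adjusted p = 0.000513) in Parse Mini with the wide gates. With the higher-numbered well alone, Parse Mini called 0 members there, while Ikzf2 was called with either well alone in Parse WT. Ikzf1 was lower in the Foxp3 gate, by 0.80 and 1.01 on the log2 scale (-0.80 ± 0.16, adjusted p = 0.00123, and -1.01 ± 0.18, adjusted p = 0.000408), and without lobe 4 the Parse WT call was lost (adjusted p = 0.0944), as it was with the lower-numbered well alone. The fitted difference of Ikzf4 was 3.16 ± 0.85 in Parse WT and 0.92 ± 0.68 in Parse Mini. The narrow gates of Parse WT called Ikzf2 (3.21 ± 0.56, adjusted p = 0.000486) and Ikzf1 (-0.73 ± 0.17, adjusted p = 0.0124). Mature CD4 cells entered that narrow fit from lobe 1 and lobe 3 alone. Members called, Ikzf4 left out, numbered 2 and 2 of 3 with the wide gates and 2 with the narrow gates, against 1.59%, 1.23% and 2.01% of all genes. The median change over all genes was itself -0.22 in Parse WT and -0.14 in Parse Mini with the wide gates.

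CD8 cells were set against mature CD4 cells. Ikzf2 was 3.68-fold higher in the CD8 gate in Parse WT (log2 change 1.88 ± 0.32, adjusted p = 3.11e-05), with all 4 lobes higher. In Parse Mini the change was 0.15 ± 0.33 (adjusted p = 0.936, interval -0.50 to 0.81), with 2 of 4 lobes higher, and the mature CD4 value of lobe 1 there, 3347 CPM, came from 7 cells. Ikzf3 was lower in CD8 cells in Parse WT (-0.53 ± 0.15, adjusted p = 0.0336), lost without lobe 1, lobe 3 or lobe 4 and without the block (adjusted p = 0.0892). Members called numbered 2 and 0 with the wide gates (3.22% and 1.41% of all genes). In Parse Mini, with Ikzf4 left out, Ikzf3 was the 1 member below 0.05 before adjustment in edgeR and the 1 member called by DESeq2. With the narrow gates of Parse WT edgeR called 0 (1.6% of all genes), while Ikzf1 and Ikzf2 were the 2 members below 0.05 before adjustment, and DESeq2 called 1 member. Mature CD4 cells of only lobe 1 and lobe 3 entered there.

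Ikzf3 was lower in double-negative than in resting double-positive cells. Double-negative cells held it at 56.7, 202, 53.5 and 107 CPM in Parse WT and 150.1, 157, 101 and 217 CPM in Parse Mini. Resting double-positive cells held 673, 670.1, 711 and 601 CPM and 795, 773, 727 and 751 CPM. All lobes were higher at the later stage, with no overlap. The log2 difference of double-negative from resting double-positive cells was -2.74 ± 0.15 (adjusted p = 1.58e-24) and -2.33 ± 0.18 (adjusted p = 1.57e-17). The 8 NK cell markers summed to 27.8 CPM (22.7 to 34.6 over lobes, 7 of 8 at 0) and 63.2 CPM (25.5 to 101, 5 at 0) in double-negative cells, against 8.42 and 6.48 CPM in resting double-positive cells. The B cell markers summed to 109 and 45.4 CPM against 113 and 15.2 CPM, and the part of either list in these differences was not tested.

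Other members differed between the same gates. Ikzf1 was lower in double-negative cells, at 1451, 1268, 1116 and 1104 CPM in Parse WT against 1753, 1750.4, 1681 and 1607 CPM in resting double-positive cells (log2 change -0.54 ± 0.09, adjusted p = 1.9e-06), and at -0.42 ± 0.11 (adjusted p = 0.000749) in Parse Mini. Ikzf2 was higher in double-negative cells, by 0.71 ± 0.18 (adjusted p = 0.000825) and 0.62 ± 0.23 (adjusted p = 0.0229), a difference lost in each experiment when its lobe 2 was left out (1061 and 1097 CPM in those lobes, against 447 to 602 CPM in the others), and in Parse Mini without the block (adjusted p = 0.0746) and with DESeq2. Ikzf4 was higher by 1.99 ± 0.54 (adjusted p = 0.00125) in Parse WT and stood at 1.82 ± 0.79 (adjusted p = 0.0522, or 0.0409 without the block) in Parse Mini, from 11.3 to 28.8 CPM against 3.53 to 5.07 CPM in Parse WT. This comparison called 4 of 4 (Ikzf4 included) and 3 of 4 members, against 55.4% and 47.2% of all genes, and too few narrow double-negative cells were found to fit it.

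Cycling cells held less Ikzf3 than resting double-positive cells in all 4 edgeR fits, while DESeq2 called 0 members with the narrow gates of either experiment. The wide gates gave -0.37 ± 0.07 (adjusted p = 6.02e-06) and -0.38 ± 0.08 (adjusted p = 4.75e-05), and the narrow gates -0.26 ± 0.09 (adjusted p = 0.00723, lost without lobe 4 and, at 0.178, without the block) and -0.29 ± 0.06 (adjusted p = 1.9e-06). Ikzf3 was the 1 member called in each, against 65.7%, 68.7%, 58.3% and 54.7% of all genes. Ikzf1 differed by 0.04 or less on the log2 scale in each of the 4.

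Late in the series Ikzf3 was highest in the Tnfrsf9 gate. Its level was 1121, 1364, 1133 and 953 CPM in Parse WT and 1832, 1446, 1259.95 and 1669 CPM in Parse Mini. The Foxp3 gate held 1059.9, 958, 874 and 1109.6 CPM and 602, 1136, 851 and 1463 CPM. Those gates overlapped, and with selected double-positive (772 ± 68.3 CPM) and mature CD4 cells (796 ± 74.4 CPM) formed the upper part of the order in Parse WT. Immature CD4 (542 ± 78.3 CPM), CD8 (545 ± 6.24 CPM) and cycling cells (519 ± 48.0 CPM) overlapped each other, with lower means than resting double-positive cells (664 ± 45.6 CPM). The range of immature CD4 cells (473 to 655 CPM) overlapped that of resting double-positive cells (601 to 711 CPM).

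Mature CD4 cells held more Ikzf3 than immature ones with the wide gates. The log2 change was 0.56 ± 0.15 (adjusted p = 0.0224) in Parse WT, lost without lobe 1, lobe 3 or lobe 4 and without the block (adjusted p = 0.0803), and 0.79 ± 0.20 (adjusted p = 0.0138) in Parse Mini, lost without lobe 1 or lobe 2. It was the 1 member called in each (3.85% and 2.15% of all genes), and the narrow gates of Parse WT called 0 members by edgeR (1.67%), with Ikzf1 the 1 member below 0.05 before adjustment, and 0 by DESeq2. Only lobe 1 and lobe 3 supplied mature CD4 cells to that narrow fit. Along the Tnfrsf9 steps of late cells Ikzf3 went from 635 to 881, 1329 and 1555 CPM in Parse WT and from 908 to 1134, 1592 and 2022 CPM in Parse Mini, and the last step exceeded the first in all 8 lobes.

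Ikzf1 was present at every stage. Its mean over lobes ran from 1235 ± 162 CPM in double-negative cells to 2452 ± 335 CPM in mature CD4 cells of Parse WT, and from 1382 ± 227 CPM in the Foxp3 gate to 2871 ± 91.8 CPM in selected double-positive cells of Parse Mini. No neighbouring gates in the Parse WT order had ranges that did not overlap. In Parse Mini the ranges did not overlap between selected double-positive and mature CD4 cells, between cycling and resting double-positive cells, and between resting double-positive and double-negative cells. Thinned to 1500 UMIs per cell, 77.9% to 96.9% of cells in a gate held an Ikzf1 UMI in Parse WT, and 79.3% to 97.7% in Parse Mini.

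Ikzf4 levels rest on few UMIs in the late gates, 15 and 17 in the Foxp3 gate and 23 and 28 in the Tnfrsf9 gate of Parse WT and Parse Mini. Foxp3 cells held 147, 119.7, 339.8 and 24.1 CPM in Parse WT and 452, 136, 142 and 209 CPM in Parse Mini, and resting double-positive cells held 3.53 to 5.07 and 3.73 to 5.19 CPM. All 8 lobes of Foxp3 cells were higher, with no overlap. With 90% of lineage UMIs required from 1 lineage, Foxp3 cells of Parse WT held 2 Ikzf4 UMIs in 20 cells. Their pooled level was 32.7 CPM (exact Poisson 95% interval 3.96 to 118), against 4.26 CPM in resting double-positive cells. In Parse Mini 12 UMIs in 19 cells gave 170 CPM (88.1 to 298) against 4.03 CPM. The source of the UMIs lost in Parse WT was not tested. The Tnfrsf9 gate held 21.9, 54.1, 62.1 and 23.1 CPM and 83.3, 42.5, 90.8 and 101 CPM. Mature CD4 cells held 25.3, 0, 0 and 11.4 CPM in Parse WT but 54.9, 187, 103 and 0 CPM in Parse Mini, from 14 UMIs, where they overlapped both the Tnfrsf9 and the Foxp3 gate. In Parse Mini every lobe of the Foxp3 gate was above every lobe of the Tnfrsf9 gate, while in Parse WT the ranges overlapped. After thinning, 11.8% and 28% of Foxp3 cells held an Ikzf4 UMI, against 0.488% and 0.410% of resting double-positive cells.

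Ikzf5 lay between 0 and 61.7 CPM in every lobe of the wide gates (up to 92.5 CPM in the narrow gates), and no neighbouring gates in its order had ranges that did not overlap in either experiment. After thinning, 0.851% to 3.79% of cells held a UMI in Parse WT and 0.885% to 6.98% in Parse Mini. Given the overlap with Pstk and Fgfr2, these levels are an uncertain measure of the gene.

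Levels of different genes were also set side by side per length, and how far these counts scale with gene length was not tested. Without that division the pooled levels in the Tnfrsf9 gate were 3603 CPM for Ikzf2 and 1992 CPM for Ikzf1 in Parse WT. In Parse Mini they were 4577 and 2264 CPM. Per kilobase of exon, resting double-positive cells of Parse WT held Ikzf1 at 292, Ikzf3 at 75.3, Ikzf2 at 29.8, Ikzf5 at 3.54 and Ikzf4 at 0.706 CPM. In the Tnfrsf9 gate the exon-length level of Ikzf2 came close to that of Ikzf1, at 310.2 against 345 CPM per kilobase in Parse WT and 394 against 392 in Parse Mini. Random priming can also capture introns, and per kilobase of the whole gene span the same cells of Parse WT held Ikzf1 at 22.7 and Ikzf2 at 23.1 CPM.

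The 16 other tissue samples carried mostly B-lineage cells. Gates there were built from lineage genes, with Foxp3, Cd4 and Cd8 UMIs added for T cells and the cell-cycle genes for B cells. In T-lineage cells with a Foxp3 UMI (661 cells, 15 samples with enough cells), Ikzf2 ran from 1154 CPM through a median of 2564 to 4192 CPM. CD4 cells ran from 152 through 295 to 632 CPM and CD8 cells from 5.15 through 75.4 to 163 CPM. Foxp3 cells were higher than CD4 cells in 15 of 15 samples, and CD4 cells were higher than CD8 cells in 16 of 16. The thymic lobes of Parse WT had the opposite order, while those of Parse Mini were divided between CD8 and mature CD4 cells. The thymic gates also used Zbtb7b, Cd40lg and Runx3, so the gates compared are unlike. Regulatory cells were kept out of the CD4 gates by their Foxp3 UMIs, so those without one could remain. Their part in these levels was not tested. Outside T cells Ikzf2 stood at a median of 126 CPM in NK, 168 in plasmacytoid dendritic, 28.0 in resting B and 24.1 CPM in macrophage and monocyte cells.

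Ikzf3 was high in B and NK cells. Resting B cells ran from 454 through 1098 to 1459 CPM and NK cells from 584 through 1108 to 1754 CPM. Cycling B cells (median 941 CPM) were lower than resting B cells in 16 of 16 samples, and plasma cells had a median of 279 CPM. CD4 cells, at 176 through 365 to 480.3 CPM, lay below resting B cells in 16 of 16 samples. Neutrophil, macrophage, erythroid and conventional dendritic cells had medians of 100.3, 95.2, 29.7 and 31.1 CPM. Thymic B-lineage cells held 762 to 1140 CPM of Ikzf3 over the lobes of Parse WT and 774 to 1206 CPM in Parse Mini.

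Ikzf1 was again the most even member, with pooled levels from 612 CPM in plasma cells to 1868 CPM in NK cells. Foxp3 cells were lower than CD4 cells in 15 of 15 samples (median 1001 against 1746 CPM), the direction also measured in the thymic gates. Resting B cells ran from 995 through 1362 to 1863 CPM.

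Ikzf4 followed Foxp3 cells here as well. It ran from 0 through 80.4 to 221 CPM in them, above CD4 cells (median 12.9 CPM) in 14 of 15 samples. Pooled levels were 3.50 CPM in CD8, 4.35 CPM in erythroid and 1.69 CPM in resting B cells, while NK and plasmacytoid dendritic cells held 1 UMI each. Plasma cells held 0 UMIs in 521 cells, which allows a level of up to 2.16 CPM (exact Poisson, 95%, counting error only). Ikzf5 had its highest pooled level in erythroid cells, at 23.5 CPM, and its lowest in conventional dendritic cells, at 7.13 CPM.

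Members were also compared by pattern over 20 narrow-gate classes of thymic and other cells of Parse WT, with Pearson's r of log2(CPM + 10) among 13408 genes. The points share libraries, so r is a description without a test. Ikzf2 and Ikzf4 were the most alike pair (r = 0.79), followed by Ikzf1 and Ikzf3 (r = 0.68). The genes nearest to Ikzf1 were Tnrc6c (r = 0.92), Bptf and Stk26 (both 0.88). Those nearest to Ikzf2 were Frmd6 (0.88), Taf1b and Nt5c3b (both 0.87), and those nearest to Ikzf3 were Jakmip1, Ppp1r16b (both 0.91) and Ablim1 (0.90). Ikzf4 was nearest to Gpr83 (0.95) and Tnfrsf4 (0.93), both cell-surface receptors of regulatory T cells, and Gm3739 (0.92). Ikzf5 was nearest to Asf1a (0.87), Hs2st1 and Cep95 (both 0.85). With the wide gates, over 21 classes that did not include thymic Foxp3 cells, the nearest gene changed for every member. It was Bptf for Ikzf1 (0.89), Dlg4 for Ikzf2 (0.89), Ppp1r16b for Ikzf3 (0.88), Tnfrsf4 for Ikzf4 (0.90) and Ppp6c for Ikzf5 (0.81).

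Partners of the family were counted from lists chosen by function. Of the 13 NuRD genes, the complex that Ikaros recruits, 12 were tested with the wide gates. Double-negative cells had 6 higher and 2 lower than resting double-positive cells in Parse WT (median log2 change 0.18, against -0.04 over all genes) and 4 higher and 2 lower in Parse Mini (0.08 against -0.01). These counts lie near the 55.4% and 47.2% of all genes called there and are no result about the list. In cycling cells 5 were higher and 1 lower in each of the 4 fits, with list medians of 0.02 to 0.13 against -0.10 to -0.05 over all genes, where 54.7% to 68.7% of all genes were called. Rbbp7, a histone-binding subunit, was higher by 1.02 ± 0.08 there with the narrow gates of Parse WT (adjusted p = 3.03e-15), and Mbd2, a methyl-DNA-binding subunit, was lower (-0.30 ± 0.05, adjusted p = 3.9e-06).

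Chd3, a remodelling ATPase of NuRD, moved most at selection. It was higher in selected than in resting double-positive cells by 1.52 ± 0.10 (adjusted p = 4.59e-19) in Parse WT and 1.48 ± 0.14 (adjusted p = 1.57e-13) in Parse Mini, and in immature CD4 cells by a further 1.25 ± 0.12 (adjusted p = 5.66e-13) and 1.18 ± 0.16 (adjusted p = 3.57e-08), all with the wide gates. With the narrow gates the further difference was 1.19 ± 0.18 (adjusted p = 1.75e-05) in Parse WT and did not pass in Parse Mini (0.48 ± 0.20, adjusted p = 0.373). In the Tnfrsf9 gate it was lower than in selected double-positive cells with the narrow gates (-0.68 ± 0.16 and -0.91 ± 0.17, adjusted p = 0.00516 and 3.7e-05) and higher with the wide gates of Parse Mini (0.66 ± 0.18, adjusted p = 0.00613), so its direction there depended on the gate.

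Of 5 further corepressor and remodelling genes, Smarca4, the ATPase of the BAF complex, was lower in selected than in resting double-positive cells (-0.68 ± 0.09, adjusted p = 6.99e-09, and -0.66 ± 0.11, adjusted p = 3.35e-06). The list counted 0 higher and 2 lower of 4 tested in each experiment with the wide gates, with medians of -0.23 and -0.25 against -0.01 and -0.02, where 24.5% and 23% of all genes were called. Of the 5 genes of the cereblon ubiquitin ligase, through which thalidomide-class drugs direct human Ikaros and Aiolos to degradation, Crbn itself was lower in double-negative cells (-0.79 ± 0.22, adjusted p = 0.00189, and -0.68 ± 0.29, adjusted p = 0.0495) and in cycling cells (-0.31 ± 0.08, adjusted p = 0.000411, and -0.32 ± 0.08, adjusted p = 0.000206). With the wide gates the list counted 0 higher and 1 lower, and 0 higher and 2 lower, in those comparisons in each experiment, of 5 tested in Parse WT and 4 in Parse Mini. Of all genes, 55.4% and 47.2% were called in the first comparison and 65.7% and 68.7% in the second.

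Of 8 textbook targets of Ikaros, Notch3, Hes1 and Dntt had served in the wide gates, so only the others are given for them. Notch1, the receptor that drives early T cell commitment, was higher in double-negative than in resting double-positive cells by 2.91 ± 0.10 (adjusted p = 1.51e-32) and 3.18 ± 0.12 (adjusted p = 1.7e-34), and Myc, a growth regulator, by 3.17 ± 0.32 (adjusted p = 4.73e-13) and 3.49 ± 0.44 (adjusted p = 4.64e-10). Dtx1, a Notch target, was higher by 1.51 ± 0.34 in Parse WT (adjusted p = 0.00014). With all 8 kept, the list counted 5 higher and 1 lower of 6 tested in Parse WT and 3 higher and 1 lower of 4 in Parse Mini, a count that the gates in part fixed, beside 55.4% and 47.2% of all genes.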

How the data were processed

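Cells of Parse Evercode experiments were analysed from raw UMI counts per cell and gene, which the authors deposited after mapping to mm10 with split-pipe and joining sublibraries; neither the labels nor the methods state the versions or the strand setting. The gene model used here for positions and sequences was GENCODE M21 (GRCm38), whose length and overlap may differ from the authors' annotation.

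Cells within the study's limits (500 to 25000 UMIs, at most 15% mitochondrial) were assigned a lineage with at least 3 UMIs of its marker list that made up at least 70% of UMIs over 9 lists. No doublet caller was run, whereas the study removed called doublets from its Parse data. CPM are UMIs per 1000000 outside Rn18s-rs5, mt-Rnr1 and mt-Rnr2. Counts were summed per lobe and gate (at least 10 cells, or 3 for the wide gates) and fitted with edgeR 4.0.16 in R 4.3.3 (TMM, filterByExpr, glmQLFit and glmQLFTest, lobe as block) on 5378 genes (narrow) and 6033 (wide) in Parse WT and 9225 and 4465 in Parse Mini. Each lobe supplied its own gates, so the pairing follows from the design, and sums below the cell limit were left out. DESeq2 1.42.0 was an alternative. The fit was tested on simulated data. Alternatives were the normalization, the filter, the block, single wells, thinned cells, stricter gates, other comparison cells and leaving out each lobe. The wide gates were chosen after the data were seen, and 1 gene of their double-positive list is not reported here.

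The family and the lists were chosen with earlier results of these data known. Named genes were the 5 members, list genes past the threshold and the 3 genes most alike to each member. The lists were NuRD, other corepressors and remodellers, the cereblon ligase and textbook targets. Intervals and floors cover counting error only.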

Additional observations from a re-analysis of the deposited data

Results flagged for a closer look

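In 8 of 90 groups of 4 lobes (a member in a wide gate of 1 experiment) 1 lobe stood far from the other 3, where chance gives about 1 in 20 for continuous values, a rate that cannot be applied to groups of few UMIs. In double-negative cells, Ikzf1 in lobe 4 of Parse Mini was 1198 CPM against 1475 to 1519 CPM, and Ikzf2 in lobe 2 of Parse WT was 1061 CPM against 447 to 549.6 CPM. In selected double-positive cells, Ikzf2 in lobe 1 of Parse WT was 1484 CPM against 910.4 to 982 CPM. In cycling cells, Ikzf4 in Parse Mini had a lowest lobe of 4.59 CPM (28 UMIs) against 5.93 to 6.10 CPM, and Ikzf5 in Parse WT had a highest lobe of 29.99 CPM (134 UMIs) against 16.7 to 18.8 CPM. In mature CD4 cells, Ikzf5 was 0 CPM in 1 lobe of Parse Mini with 7 cells, against 34.4 to 37.9 CPM. In the Foxp3 gate, Ikzf5 was 29.4 CPM in 1 lobe of Parse WT and 29.8 CPM in 1 lobe of Parse Mini, each from 1 UMI, with the others at 0.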

How the results depend on the processing

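Over all values tested again, leaving out a lobe kept the side of the threshold in 374 cases, lost a call in 37 and gained one in 6. The other settings did so in 613, 62 and 47 cases, with 4 reversals. A change of direction was counted as a reversal only where a call was involved. Values that were called in neither setting count as kept even where their sign changed. The cause of these changes was not tested. Reversed were Ikzf3 in selected against resting double-positive cells of Parse Mini (0.33 with wide gates) and in CD8 against mature CD4 cells of Parse WT (-0.53 with wide gates), Ikzf2 in the narrow Tnfrsf9 comparison of Parse WT with other response genes (-0.25), and Ikzf1 in the wide Tnfrsf9 comparison of Parse Mini against immature CD4 cells (0.13). Counts of members called are given in the order cycling, selected, immature CD4, mature CD4, CD8, Tnfrsf9 and Foxp3 where they moved by more than 1.5 times. They include Ikzf4 unless said otherwise. With the wide gates its calls against the Foxp3, Tnfrsf9 or, in Parse Mini, mature CD4 gate are no result, because it passed the filter through those gates.

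With DESeq2 the narrow counts were 0 and 0 for cycling, 1 for selected (Parse WT), 1 for CD8 (Parse WT) and 1 and 1 for Tnfrsf9. The wide count for CD8 in Parse Mini was 1 with Ikzf4 left out. The list genes called in the Tnfrsf9 comparison were 3 (narrow, Parse Mini) and 5 (wide, Parse WT). Size factors of DESeq2 gave 2 for cycling, 2 for selected and 1 for Tnfrsf9 in narrow Parse Mini, and 2 for cycling in wide Parse WT. No filter on low counts gave 1 or 2 in each comparison that moved so far, both gate sets included, and 1 list gene for wide Tnfrsf9 in Parse Mini. At least 2 UMIs of a gate gene gave 2 for cycling in Parse Mini, 1 for selected and 1 for Tnfrsf9 in Parse WT, and 0 list genes for Tnfrsf9 there. Thinned cells gave 3 and 2 for cycling in Parse Mini and Parse WT, 1 for selected and 1 for Tnfrsf9 in Parse WT, and 0 and 1 list genes for Tnfrsf9 in Parse Mini and Parse WT.

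Without the replicate block the narrow counts were 0 for cycling, 1 for selected and 0 for Tnfrsf9 in Parse WT and 0 for immature CD4 and 1 for Tnfrsf9 in Parse Mini, the wide counts in Parse WT were 0 for mature CD4 and 1 for CD8, and list genes were 5 for wide selected and 1 for narrow Tnfrsf9 in Parse WT. The lower-numbered or higher-numbered well alone gave member counts of 0, 1 or 2 wherever they moved so far, among them 0 for Foxp3 in wide Parse Mini and 1 in wide Parse WT. List genes with a single well numbered 10 and 6 in double-negative cells (Parse WT and Parse Mini), 3 to 5 for wide selected, and 0 to 6 for Tnfrsf9. Sums of at least 3 cells gave 2 for selected, 0 for immature CD4 and 1 for Tnfrsf9 in narrow Parse Mini and 1 for CD8 in Parse WT. Wide in place of narrow gates, with sums of at least 3 in place of 10 cells, gave 3 and 3 for selected and immature CD4 in Parse Mini and 2, 1 and 2 for immature CD4, mature CD4 and CD8 in Parse WT. Other response genes gave 0 for Tnfrsf9 in Parse WT and 1 in Parse Mini, and 2 were called against immature CD4 cells in wide Parse Mini. Along those genes the Ikzf2 ratio was 1.67 and 1.94 in place of the 6.07 and 7.35 along Tnfrsf9 in all T-lineage cells. Along Tnfrsf9 in late cells alone the ratio was 4.46 in Parse Mini, and with narrow gates the pooled Tnfrsf9 ratio was 3.51 and 4.92 in place of 10.4 and 11.3.

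Leaving out 1 lobe gave, for narrow gates, 1 to 2 (cycling, Parse Mini), 0 to 2 (cycling, selected and Tnfrsf9, Parse WT), 0 to 1 (immature CD4, both), 1 to 2 (Tnfrsf9, Parse Mini) and 1 to 2 (Foxp3, Parse WT). For wide gates it gave 1 to 2 (cycling and CD8, Parse WT), 0 to 2 and 0 to 1 (mature CD4, Parse Mini and Parse WT) and 0 to 1 (CD8, Parse Mini), the Parse Mini counts with Ikzf4 included. List genes ran from 5 to 8 (wide selected, Parse WT), 3 to 6 and 0 to 2 (narrow Tnfrsf9, Parse Mini and Parse WT) and 1 to 3 (wide Tnfrsf9, both). Too few cells were left to fit the narrow double-negative comparison in either experiment, the narrow mature CD4, CD8 and Foxp3 comparisons of Parse Mini, and several of their alternatives.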

Other observations

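Foxp3 cells of the thymic lobes were also divided by whether they held a Tnfrsf9 UMI. In Parse WT the 7 cells with one held Ikzf2 at 4877 CPM (exact Poisson 95% interval 4016 to 5868) and the 32 without held 2495 CPM (2179 to 2845). In Parse Mini the 9 cells with one held 3379.8 CPM (2818 to 4021) and the 16 without held 3771 CPM (3265 to 4333). The intervals cover counting error only, and no order is read in either experiment. Thymic B-lineage cells held Ikzf2 at 91.1 CPM in Parse WT and 149 CPM in Parse Mini, and Ikzf1 at 1217 and 1019 CPM. They held 0 UMIs of Ikzf4 in 316 and 64 cells, which allows up to 7.47 and 17.2 CPM.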
